A study of Mus musculus with 95 samples.

Results

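The genes described here encode the proton pump of the lysosome, its cathepsins and its membrane proteins. They were taken by a rule on gene symbols. It took every measured gene of the V-ATPase families Atp6v and Atp6ap and of the LAMP and LAPTM families. From the Cts genes it took only Ctsa, Ctsb, Ctsc, Ctsd, Ctse, Ctsf, Ctsh, Ctsk, Ctsl, Ctso, Ctss and Ctsz. Npc1, Npc2, the mucolipins Mcoln1 to Mcoln3, Pla2g15 and Gpnmb were also in the rule. That gave 45 of the 16464 genes tested. By role they were 10 subunits of the V1 sector and 8 of the V0 sector of the pump, 2 pump accessory proteins, 9 cysteine cathepsins, 3 aspartic or serine cathepsins, 3 LAMP and 3 LAPTM proteins, 5 proteins of lipid and ion transport, and the pair Pla2g15 and Gpnmb.

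The study measured liver RNA on 95 Affymetrix arrays from male C57BL/6 mice aged 10 weeks. The mice were given amiodarone (AMD, an antiarrhythmic drug), valproic acid (VPA, an antiepileptic drug), tetracycline (TET, an antibiotic) or a vehicle by oral gavage, and the series title names steatosis, a build-up of fat in the liver. Amiodarone was dosed at 6.7, 20 or 60 mg/kg, valproic acid at 125, 250 or 500 mg/kg and tetracycline at 14.8, 44 or 133 mg/kg. Every dose was taken on day 11 with 5 arrays a group, and the highest of each drug also on days 1 and 4 with 4 arrays a group. Controls for amiodarone and valproic acid got phosphate-buffered saline (PBS), and controls for tetracycline got milli-q water with ascorbic acid (ASC), with 4 arrays on days 1 and 4 and 5 on day 11. Amiodarone and valproic acid therefore share their control arrays.

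The V-ATPase spends ATP to pump protons into the lysosome, where the acid activates the cathepsins and the other hydrolases that break down proteins, lipids and sugars. LAMP proteins cover the inner face of the lysosomal membrane, NPC2 and NPC1 pass cholesterol out of the lysosome in sequence, and mucolipins release its calcium. The transcription factors of the TFEB family bind E-box sites near many lysosomal genes and raise them together. Amiodarone is a cationic amphiphilic drug that collects in lysosomes, inhibits the lysosomal phospholipase PLA2G15 and is known for storage of phospholipid (phospholipidosis), so a question the design allows is whether the lysosomal genes moved under amiodarone and whether they moved in the same way under the other drugs.

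All values below are log2 values as deposited, and a gene is called where limma's adjusted p over 16464 genes is under 0.05. Of the 45 genes, 31 lay above the median gene (3.10 on the log2 scale) and 14 lay below it, close to background, among them Pla2g15, Gpnmb, Ctse, Ctsk, Lamp5 and 4 V1 subunits, Atp6v1b1, Atp6v1c2, Atp6v1e2 and Atp6v1g2. The tissue matched its label: all 11 measured hepatocyte markers lay above the median gene, with group means of the list between 11.95 and 12.20. Between arrays the correlation was 0.977 to 0.996, and the array with the lowest mean correlation with its own group was 067 of valproic acid 250 mg/kg (0.987). Array 023 of valproic acid 500 mg/kg on day 1 stood apart from its group in Ctsb, Ctsl, Lamp1 and Lamp2. In liver tissue, fewer cells of a type and less RNA per cell cannot be told apart.

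Amiodarone moved single cathepsins in both directions. On day 1 it called 0 of the 45 genes (7 at an unadjusted p under 0.05), against 0.796% of all genes. On day 4 it called 3 (6.67%), with Ctsd and Ctse higher and Ctsa lower, against 6.21% of all genes. On day 11 it called 9 (20.0%), with Ctse, Ctso and Laptm4b higher and Ctsz, Ctsf, Ctsb, Laptm4a, Ctsa and Lamp2 lower, against 7.05% of all genes. Of the genes above the median gene, 0 of 31 members were called on day 1, against 1.55% of all such genes. On day 4 it was 2 of 31 (6.45%), against 11.6%, and on day 11 8 of 31 (25.8%), against 13.1%. The lower doses on day 11 called none: 0 at 6.7 mg/kg (0 at an unadjusted p under 0.05) against 0% of all genes, and 0 at 20 mg/kg (6 at an unadjusted p under 0.05) against 0.322%. The median log2 fold change of the 45 genes was -0.10 on day 1, -0.01 on day 4 and -0.05 on day 11, beside medians of 0.00, -0.01 and -0.01 over all genes. On day 1 the 16 measured markers of Kupffer cells and macrophages were also lower in value, with 0 called by limma, 11 at an unadjusted p under 0.05 and a median of -0.43. Their mean was 5.48 to 5.85 on the amiodarone arrays and 5.86, 5.89, 5.92 and, on array 025, 6.64 in PBS, and their part in the value of the 45 genes was not tested.

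Valproic acid moved both pump genes and cathepsins. Ctsc and Ctsl were higher and Atp6v0b lower on days 1 and 11 at 500 mg/kg, and Npc1 was lower on day 1 and higher on day 11. On day 1 it called 10 genes (22.2%), 4 higher and 6 lower, against 15.7% of all genes. On day 4 it called 3 (6.67%), all higher, against 2.36%. On day 11 it called 0 at 125 mg/kg (8 at an unadjusted p under 0.05) against 0.0547%, 4 at 250 mg/kg (8.89%), all higher, against 4.26%, and 11 at 500 mg/kg (24.4%), 9 higher and 2 lower, against 9.03%. Among the genes above the median gene the share of members called was 32.3% on day 1, beside 28.8% of all such genes, and 35.5% at 500 mg/kg on day 11, beside 16.7%. The medians of the 45 genes were -0.05, 0.03 and -0.01 at 500 mg/kg on days 1, 4 and 11.

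Tetracycline called 0 of the 45 genes in each of its 5 groups. At an unadjusted p under 0.05 there were 4 on day 1 (0.65% of all genes called), 3 on day 4 (0% of all genes called), 2 at 14.8 mg/kg on day 11 (0% called), 6 at 44 mg/kg (0.0243% called) and 1 at 133 mg/kg on day 11 (0% called). Over the 15 treated groups, 24 of the 45 genes (53.3%) were called at least once and 21 never, against 27.1% of all genes called at least once. These shares are not matched for signal level. Of the 45 genes 31 lay above the median gene, against 8232 of all 16464. Genes above the median gene were called more often, for example 28.8% against 15.7% of all genes on day 1 of valproic acid. Their share called at least once was not counted.

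**Figure D1:**
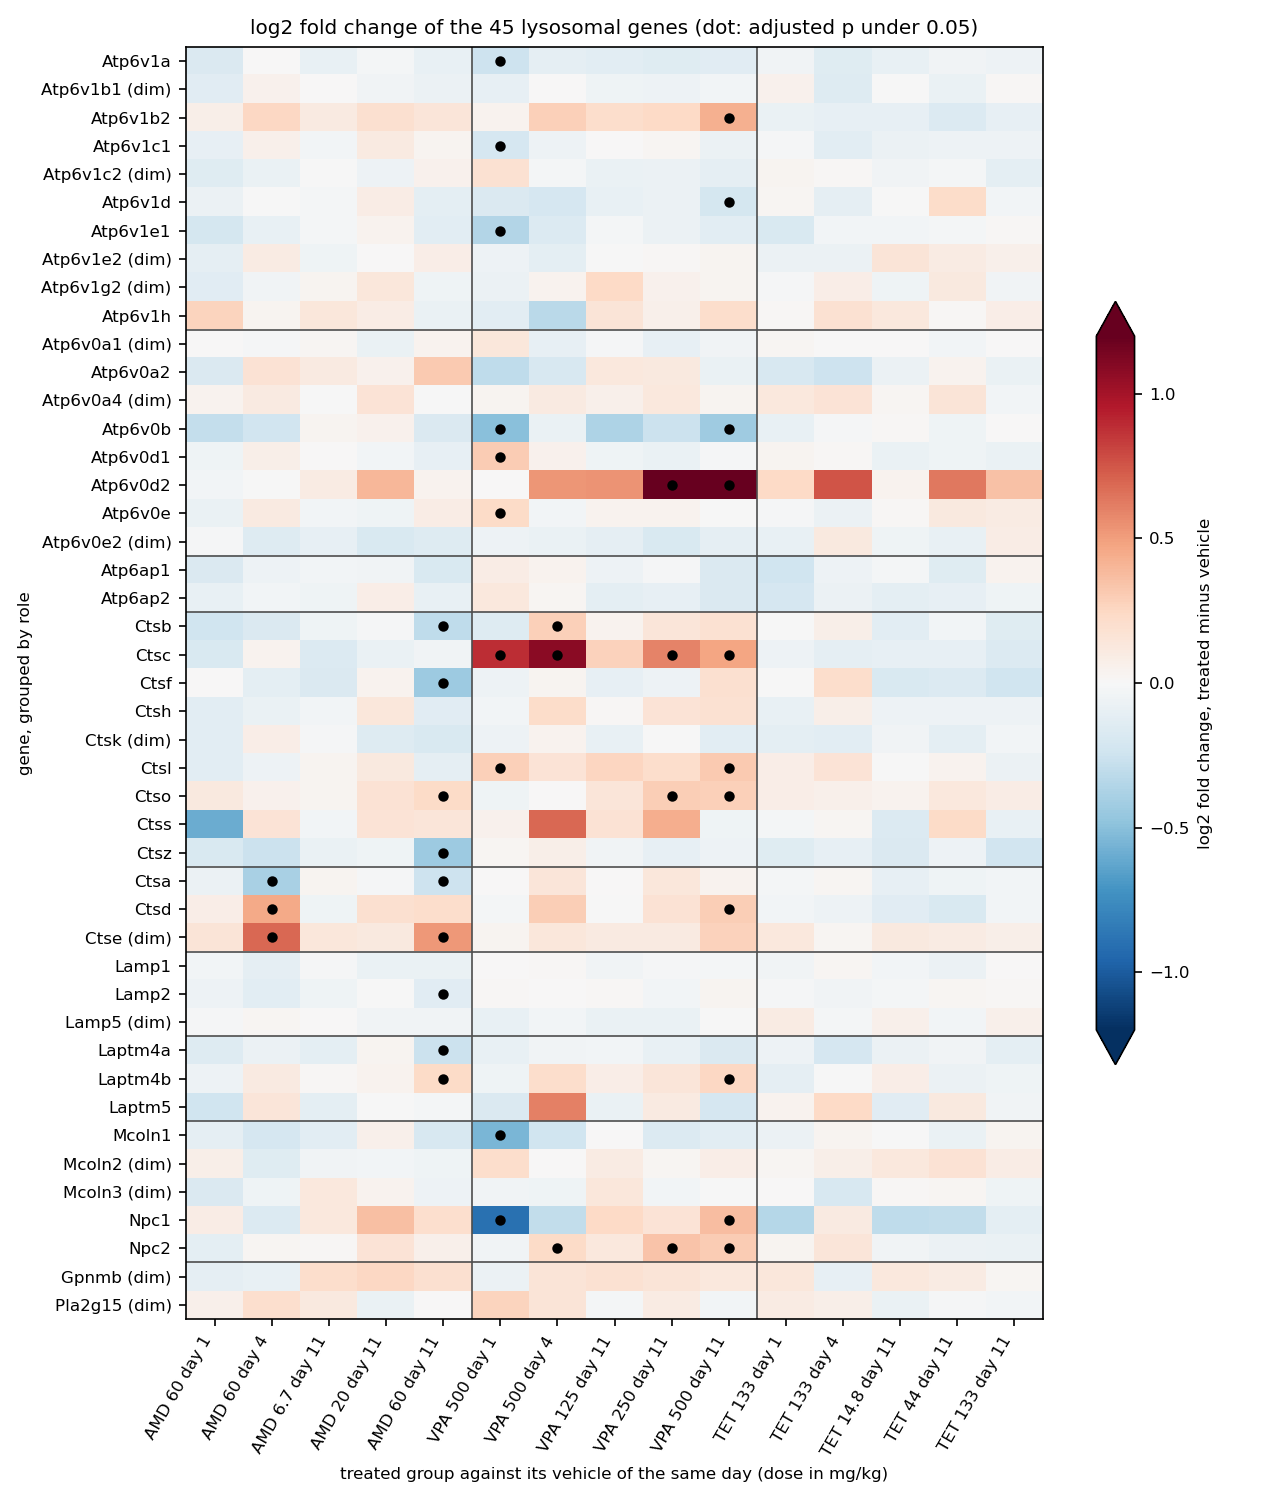
Log2 fold change of the 45 genes (rows, grouped by role) in the 15 treated groups (columns, dose in mg/kg), each against its vehicle of the same day; red is higher and blue lower than vehicle, black dots mark an adjusted p under 0.05, and dim marks genes below the median gene. Dots fall on cathepsins, Lamp2, Laptm4a and Laptm4b under amiodarone, on pump subunits, cathepsins, Npc1, Npc2, Mcoln1 and Laptm4b under valproic acid, and nowhere under tetracycline, and the colour ends at 1.2 in either direction.

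The pump is described first. Its V1 sector in the cytosol burns ATP and its V0 sector in the membrane carries the protons. Under amiodarone limma called 0 of its 20 measured genes on any day or at any dose, with 4, 1 and 3 genes at an unadjusted p under 0.05 at 60 mg/kg on days 1, 4 and 11. Beside the shares of all genes called there, 0.796%, 6.21% and 7.05%, a count of 0 in 20 is near the background. On day 11 at 60 mg/kg their changes lay between -0.18 ± 0.07 (SE) for the accessory protein gene Atp6ap1 and 0.31 ± 0.15 for Atp6v0a2, which encodes a form of the large membrane subunit. Their medians were -0.06 in V1 and 0.02 in V0.

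Atp6v0d2 was the pump gene that moved most. It encodes the d2 form of a V0 subunit that is known from osteoclasts and macrophages, whereas the d1 form is found in most cells. On day 11 the 5 PBS arrays read 2.90, 2.98, 3.03, 3.07 and 3.45 for Atp6v0d2, near the level of the median gene. At 500 mg/kg of valproic acid the arrays read 4.22, 4.77, 4.91, 4.94 and 5.50. At 250 mg/kg they read 3.57, 4.00, 4.31, 4.68 and 4.95. All 10 of these arrays lay above all 5 PBS arrays. The log2 fold change was 1.78 ± 0.20 at 500 mg/kg (3.44-fold, adjusted p = 6.6e-10) and 1.22 ± 0.20 at 250 mg/kg (2.32-fold, adjusted p = 3.8e-05). The PBS arrays lie close to background, so both folds understate the size of the change. At 125 mg/kg the arrays ran from 2.88 to 4.43 and overlapped PBS, with a difference of 0.54 ± 0.20 (adjusted p = 0.35). The slope over the 4 dose ranks was 0.60 ± 0.06 a step (adjusted p = 2.8e-11).

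The change in Atp6v0d2 also differed between days. On day 1 of valproic acid the difference from PBS was 0.00 ± 0.23 (adjusted p = 0.99), and on day 4 it was 0.53 ± 0.23 (adjusted p = 0.27), with all 4 treated arrays at 3.69 or more and the highest PBS array at 3.58. The effect on day 11 exceeded that on day 1 by 1.78 ± 0.31 (adjusted p = 6e-06). Under amiodarone the day 11 difference was 0.04, with a 95% interval from -0.37 to 0.44 (adjusted p = 0.96), and the test of amiodarone against valproic acid gave -1.74 ± 0.20 (adjusted p = 5.7e-10). Tetracycline gave 0.76 ± 0.23 on day 4 and 0.63 ± 0.20 at 44 mg/kg on day 11, neither called (adjusted p = 0.23 and 0.22). The macrophage marker list, in which 16 genes were measured, had 0 called by limma at 500 mg/kg on day 11 (0 at an unadjusted p under 0.05, median change -0.01) and 0 at 250 mg/kg (8 at an unadjusted p under 0.05, median change 0.41).

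Other pump subunits moved less and in both directions. Atp6v0b, which encodes the c'' subunit of the proton-carrying ring, read 5.19, 5.20, 5.34 and 5.44 under valproic acid on day 1 and 5.53, 5.75, 5.87 and 6.03 under PBS. Every treated array lay below every PBS array, a difference of -0.50 ± 0.13 (adjusted p = 0.0026). On day 11 at 500 mg/kg Atp6v0b read 5.06, 5.37, 5.41, 5.41 and 5.48, against 5.49, 5.74, 5.80, 5.87 and 5.96 in PBS, again without overlap (-0.43 ± 0.12, adjusted p = 0.0092). Without array 081, the lowest of the treated arrays, that difference was -0.35 (adjusted p = 0.061).

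On day 1 of valproic acid limma called 6 of the 20 pump genes, beside 15.7% of all genes and 28.8% of all genes above the median gene. Apart from Atp6v0b, 3 V1 genes were lower and 2 further V0 genes higher. Atp6v1e1, a peripheral stalk subunit, fell by 0.36 ± 0.06 (adjusted p = 5e-06), Atp6v1a, the catalytic subunit, fell by 0.25 ± 0.08 (adjusted p = 0.014), and Atp6v1c1 fell by 0.20 ± 0.07 (adjusted p = 0.02). The first 2 did not overlap with PBS and the third did. Atp6v0d1, the common d subunit, was higher by 0.31 ± 0.08 (adjusted p = 0.0038), and Atp6v0e, a small V0 subunit, by 0.23 ± 0.06 (adjusted p = 0.0022, without overlap). Fitted on the arrays of these 2 groups alone, Atp6v1e1 and Atp6v0b kept their calls, and the adjusted p of Atp6v1a, Atp6v0e and Atp6v0d1 became 0.057, 0.071 and 0.2. The call of Atp6v0d1 was also lost without array 080 (0.19, adjusted p = 0.12), and that of Atp6v1c1 without any of 3 arrays. Atp6v1c1 also lost its call with these 2 groups fitted alone and with weights for array quality.

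On day 11 at 500 mg/kg 4 of the 20 pump genes were called, beside 9.03% of all genes and 16.7% of all genes above the median gene. Beside Atp6v0d2 and Atp6v0b, these were a pair of V1 genes. Atp6v1b2, the nucleotide-binding B2 subunit, read 5.51, 5.65, 5.72, 5.73 and 5.73 under valproic acid and 4.97, 5.27, 5.27, 5.28 and 5.41 under PBS. No treated array reached down to the PBS arrays, and the difference was 0.43 ± 0.10 (adjusted p = 0.0015). Atp6v1d, a central stalk subunit, fell by 0.21 ± 0.07 (adjusted p = 0.042), with overlapping arrays and a call lost without any of 8 of the 10 arrays.

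**Figure D2:**
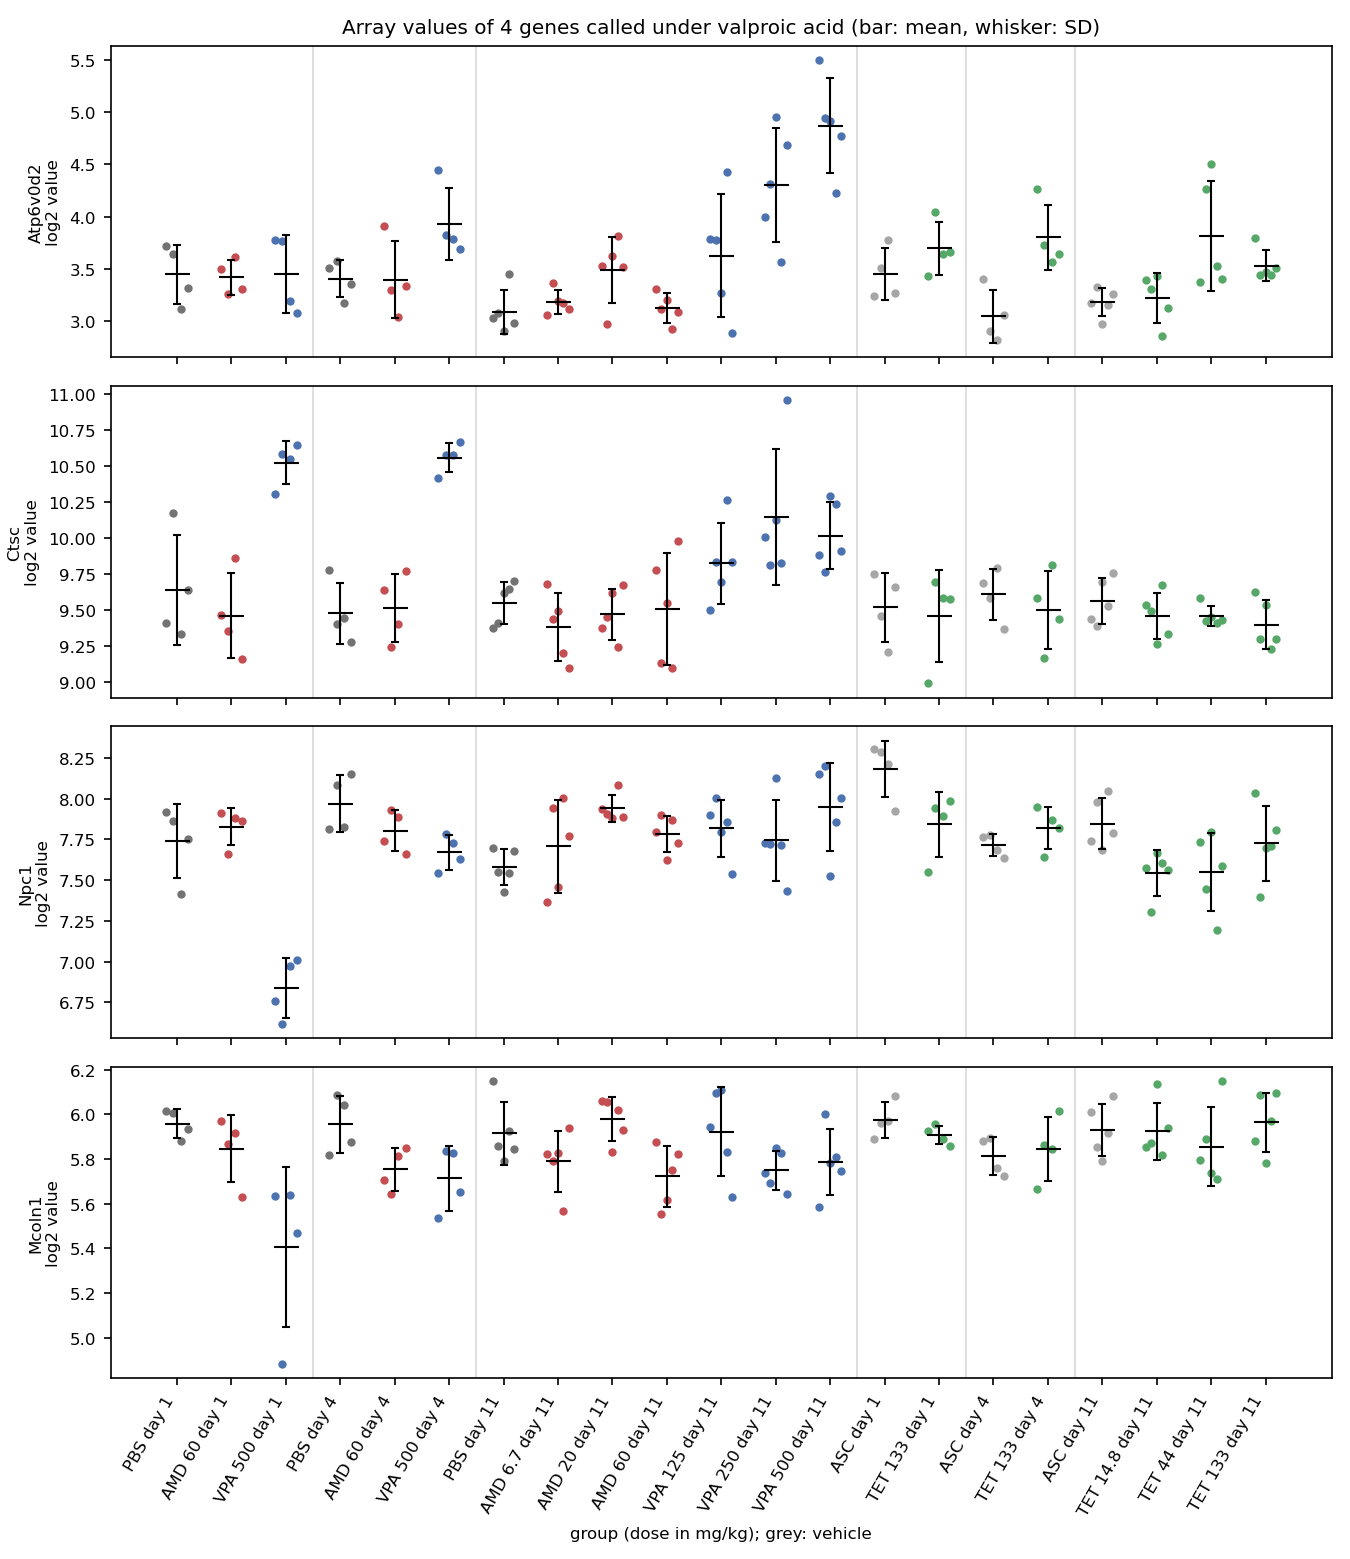
Log2 values of Atp6v0d2, Ctsc, Npc1 and Mcoln1 (panels) on every array of the 21 groups (horizontal axis, dose in mg/kg); points are arrays, bars the group mean and whiskers the SD, with vehicles in grey, amiodarone in red, valproic acid in blue and tetracycline in green. Atp6v0d2 is high at 250 and 500 mg/kg of valproic acid on day 11, Ctsc on days 1 and 4 of valproic acid, and Npc1 and Mcoln1 are low on its day 1.

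The promoters of the set were read for the E-box core CACGTG and the longer palindrome TCACGTGA, which contains that core, since the TFEB family binds such letters. A promoter window from RefSeq (assembly GRCm38.p6, 250 bases before to 50 after the gene's start) was found for 35 of the 45 genes, and not for the other 10, which include Npc1, Ctsb, Ctse and Atp6v0d2. CACGTG stood in the windows of 11 of these 35 genes (31.4%), against 10.5% of the 13162 array genes with a window. TCACGTGA stood in 6 of 35 (17.1%), against 1.69%. Both sequences are their own reverse complement, so each match counts for both strands. A match describes the letters in the window and is not shown to be a bound site.

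The 6 genes with TCACGTGA are shown because all 6 were called in at least 1 comparison and they went in opposite directions. Of all genes, 27.1% were called at least once in the 15 treated groups, and of the genes of the set 53.3%. All 6 lie above the median gene, where calls were more common, and neither share is matched for signal level. Whether the calls go with TCACGTGA was not tested. Ctsa has more than 1 window in RefSeq, and the one with the match is shown. Mcoln1 and Atp6v1a fell and Atp6v0d1 and Atp6v0e rose on day 1 of valproic acid, and Ctsa fell and Ctsd rose on day 4 of amiodarone. Capitals mark CACGTG, each window reads 5′ to 3′ on the gene's strand, and positions are chr8:3500269-3500568 on the plus strand for Mcoln1, chr16:44139210-44139509 on the minus strand for Atp6v1a, chr8:105566015-105566314 on the minus strand for Atp6v0d1, chr17:26676146-26676445 on the plus strand for Atp6v0e, chr2:164833523-164833822 on the plus strand for Ctsa and chr7:142387778-142388077 on the minus strand for Ctsd.
Mcoln1: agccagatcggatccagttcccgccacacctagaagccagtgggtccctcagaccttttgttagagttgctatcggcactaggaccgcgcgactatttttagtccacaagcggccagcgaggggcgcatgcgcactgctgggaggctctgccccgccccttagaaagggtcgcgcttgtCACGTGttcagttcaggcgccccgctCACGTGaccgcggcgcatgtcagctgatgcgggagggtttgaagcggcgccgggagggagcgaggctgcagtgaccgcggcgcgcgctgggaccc
Atp6v1a: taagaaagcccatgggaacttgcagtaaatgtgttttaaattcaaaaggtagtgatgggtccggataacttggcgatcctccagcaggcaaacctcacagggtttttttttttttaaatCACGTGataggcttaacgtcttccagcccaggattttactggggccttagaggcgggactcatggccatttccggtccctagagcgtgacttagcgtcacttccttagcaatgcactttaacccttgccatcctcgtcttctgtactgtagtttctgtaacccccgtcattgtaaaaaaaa
Atp6v0d1: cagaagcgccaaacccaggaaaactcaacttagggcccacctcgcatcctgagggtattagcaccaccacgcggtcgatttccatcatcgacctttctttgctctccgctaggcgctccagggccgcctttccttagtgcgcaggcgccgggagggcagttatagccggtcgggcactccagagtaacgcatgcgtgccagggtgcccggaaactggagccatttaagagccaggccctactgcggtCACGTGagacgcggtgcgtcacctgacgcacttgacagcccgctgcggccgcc
Atp6v0e: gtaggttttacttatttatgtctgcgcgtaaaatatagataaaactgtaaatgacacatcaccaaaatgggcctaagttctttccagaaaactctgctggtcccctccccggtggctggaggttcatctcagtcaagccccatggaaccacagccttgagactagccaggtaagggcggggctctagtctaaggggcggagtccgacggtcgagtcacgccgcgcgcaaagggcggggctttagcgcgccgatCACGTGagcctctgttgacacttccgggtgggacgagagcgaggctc
Ctsa: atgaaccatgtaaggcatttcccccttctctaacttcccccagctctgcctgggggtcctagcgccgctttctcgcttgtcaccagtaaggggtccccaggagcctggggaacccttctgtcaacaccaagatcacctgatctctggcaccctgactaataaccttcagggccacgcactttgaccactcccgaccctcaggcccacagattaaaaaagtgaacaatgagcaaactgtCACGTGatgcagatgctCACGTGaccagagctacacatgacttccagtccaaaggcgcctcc
Ctsd: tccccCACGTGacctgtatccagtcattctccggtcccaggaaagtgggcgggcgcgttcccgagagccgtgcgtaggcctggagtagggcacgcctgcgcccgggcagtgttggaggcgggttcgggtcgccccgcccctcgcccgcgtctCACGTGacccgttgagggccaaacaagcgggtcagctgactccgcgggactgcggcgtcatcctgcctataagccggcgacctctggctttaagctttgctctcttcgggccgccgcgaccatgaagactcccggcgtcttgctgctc

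Among the genes with CACGTG, 3 of 11 rose and 3 fell on day 1 of valproic acid, where 15.7% of all genes were called. Among those without it 1 of 24 rose and 1 fell. On day 11 at 500 mg/kg 2 of the 11 rose and 1 fell, beside 3 and 1 of the 24 (9.03% of all genes called). On day 11 of amiodarone 0 of the 11 rose and 2 fell, beside 1 and 3 of the 24 (7.05% of all genes called). The genes with and without the core are not matched for signal level. Of the 11, only Mcoln2 lay below the median gene. Of the 24, Atp6v0a1, Atp6v0a4, Atp6v0e2, Atp6v1b1, Atp6v1c2, Atp6v1e2, Atp6v1g2, Ctsk, Gpnmb, Lamp5, Mcoln3 and Pla2g15 did. Among all genes above the median gene, the shares called in these comparisons were 28.8%, 16.7% and 13.1%, in the same order. The share called among all array genes with the core was not counted. In these windows the core was therefore found with changes of either sign, and no test was made of it.

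The cathepsins carried most of the amiodarone calls. Ctsz, a cysteine carboxypeptidase, read 9.01, 9.06, 9.13, 9.14 and 9.30 at 60 mg/kg on day 11, against 9.41, 9.42, 9.59, 9.68 and 9.72 in PBS. All 5 treated arrays lay below all 5 PBS arrays. The difference was -0.44 ± 0.08 (0.74-fold, adjusted p = 3.4e-05). It was -0.19 ± 0.09 on day 1 and -0.26 ± 0.09 on day 4, neither called (adjusted p = 0.51 and 0.068), and -0.08 and -0.05 at the lower doses. The slope over dose ranks was -0.13 ± 0.02 (adjusted p = 0.00012). The day 4 arrays of Ctsz nevertheless read 9.27, 9.30, 9.30 and 9.32, all below the PBS range of 9.48 to 9.64.

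Ctsb, a major cysteine protease of the lysosome, was also lower. It read 7.06, 7.08, 7.09, 7.25 and 7.33 on day 11, against 7.38, 7.39, 7.45, 7.55 and 7.57 in PBS, without overlap. The difference was -0.31 ± 0.07 (0.808-fold, adjusted p = 0.0025), after -0.24 ± 0.08 on day 1 and -0.18 ± 0.08 on day 4 (adjusted p = 0.21 and 0.25). Its slope over dose ranks was -0.09 ± 0.02 (adjusted p = 0.0071). Ctsf, a further cysteine cathepsin, read 4.40, 4.48, 4.67, 4.82 and 4.95 against 4.86, 5.11, 5.16, 5.17 and 5.19, with an overlap of 1 array on each side. Its difference of -0.43 ± 0.14 (adjusted p = 0.033) lost its call without any of 7 of the 10 arrays.

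The remaining calls among cathepsins under amiodarone included genes of both signs. Ctsa, the serine carboxypeptidase that protects lysosomal galactosidase and neuraminidase, read 3.91, 4.01, 4.03 and 4.12 on day 4 against 4.18, 4.41, 4.47 and 4.58 in PBS. The groups did not overlap and differed by -0.39 ± 0.09 (adjusted p = 0.00097). On day 11 Ctsa read 4.03, 4.07, 4.12, 4.22 and 4.34 against 4.16, 4.32, 4.46, 4.51 and 4.59, an overlapping pair of groups (-0.25 ± 0.08, adjusted p = 0.028, lost without any of 6 arrays). Ctso, a cysteine cathepsin, was higher by 0.23 ± 0.06 on day 11 (adjusted p = 0.0092) and lost its call without array 062 of amiodarone (0.18, adjusted p = 0.08) or array 002 of PBS (0.19, adjusted p = 0.072).

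Both aspartic cathepsins were higher on day 4. Ctsd, the main aspartic protease of lysosomes, read 9.16, 9.23, 9.31 and 9.47 against 8.77, 8.79, 8.85 and 8.96 in PBS. The groups did not overlap, and the difference was 0.45 ± 0.11 (1.37-fold, adjusted p = 0.0027). On day 11 the difference in Ctsd was 0.21 ± 0.10 (adjusted p = 0.21), with treated arrays from 8.86 to 9.27 and PBS arrays from 8.63 to 8.93. Ctse, a non-lysosomal aspartic protease known from stomach and immune cells, read 3.12, 3.33, 3.40 and 3.47 on day 4 against 2.37, 2.56, 2.75 and 2.88. On day 11 it read 3.04, 3.06, 3.08, 3.19 and 3.58 against 2.47, 2.61, 2.61, 2.66 and 3.01. Neither day showed an overlap, and the differences were 0.69 ± 0.12 (adjusted p = 2.5e-05) and 0.52 ± 0.11 (adjusted p = 0.00039). The PBS values of Ctse lie under the median gene, close to background, where a log2 fold change understates the size of a change. Without array 062, the highest on day 11, the difference was 0.42 (adjusted p = 0.0089). Array 062 also had the highest mean of the macrophage markers in its group (6.45, the others 5.38 to 5.88). The mean of 7 neutrophil markers ran from 2.94 to 5.59 on the amiodarone arrays of day 11 and from 2.89 to 3.44 in PBS, with 0 called by limma, 3 at an unadjusted p under 0.05 and a median change of 0.45. The part of these markers in the Ctse difference was not tested.

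**Figure D3:**
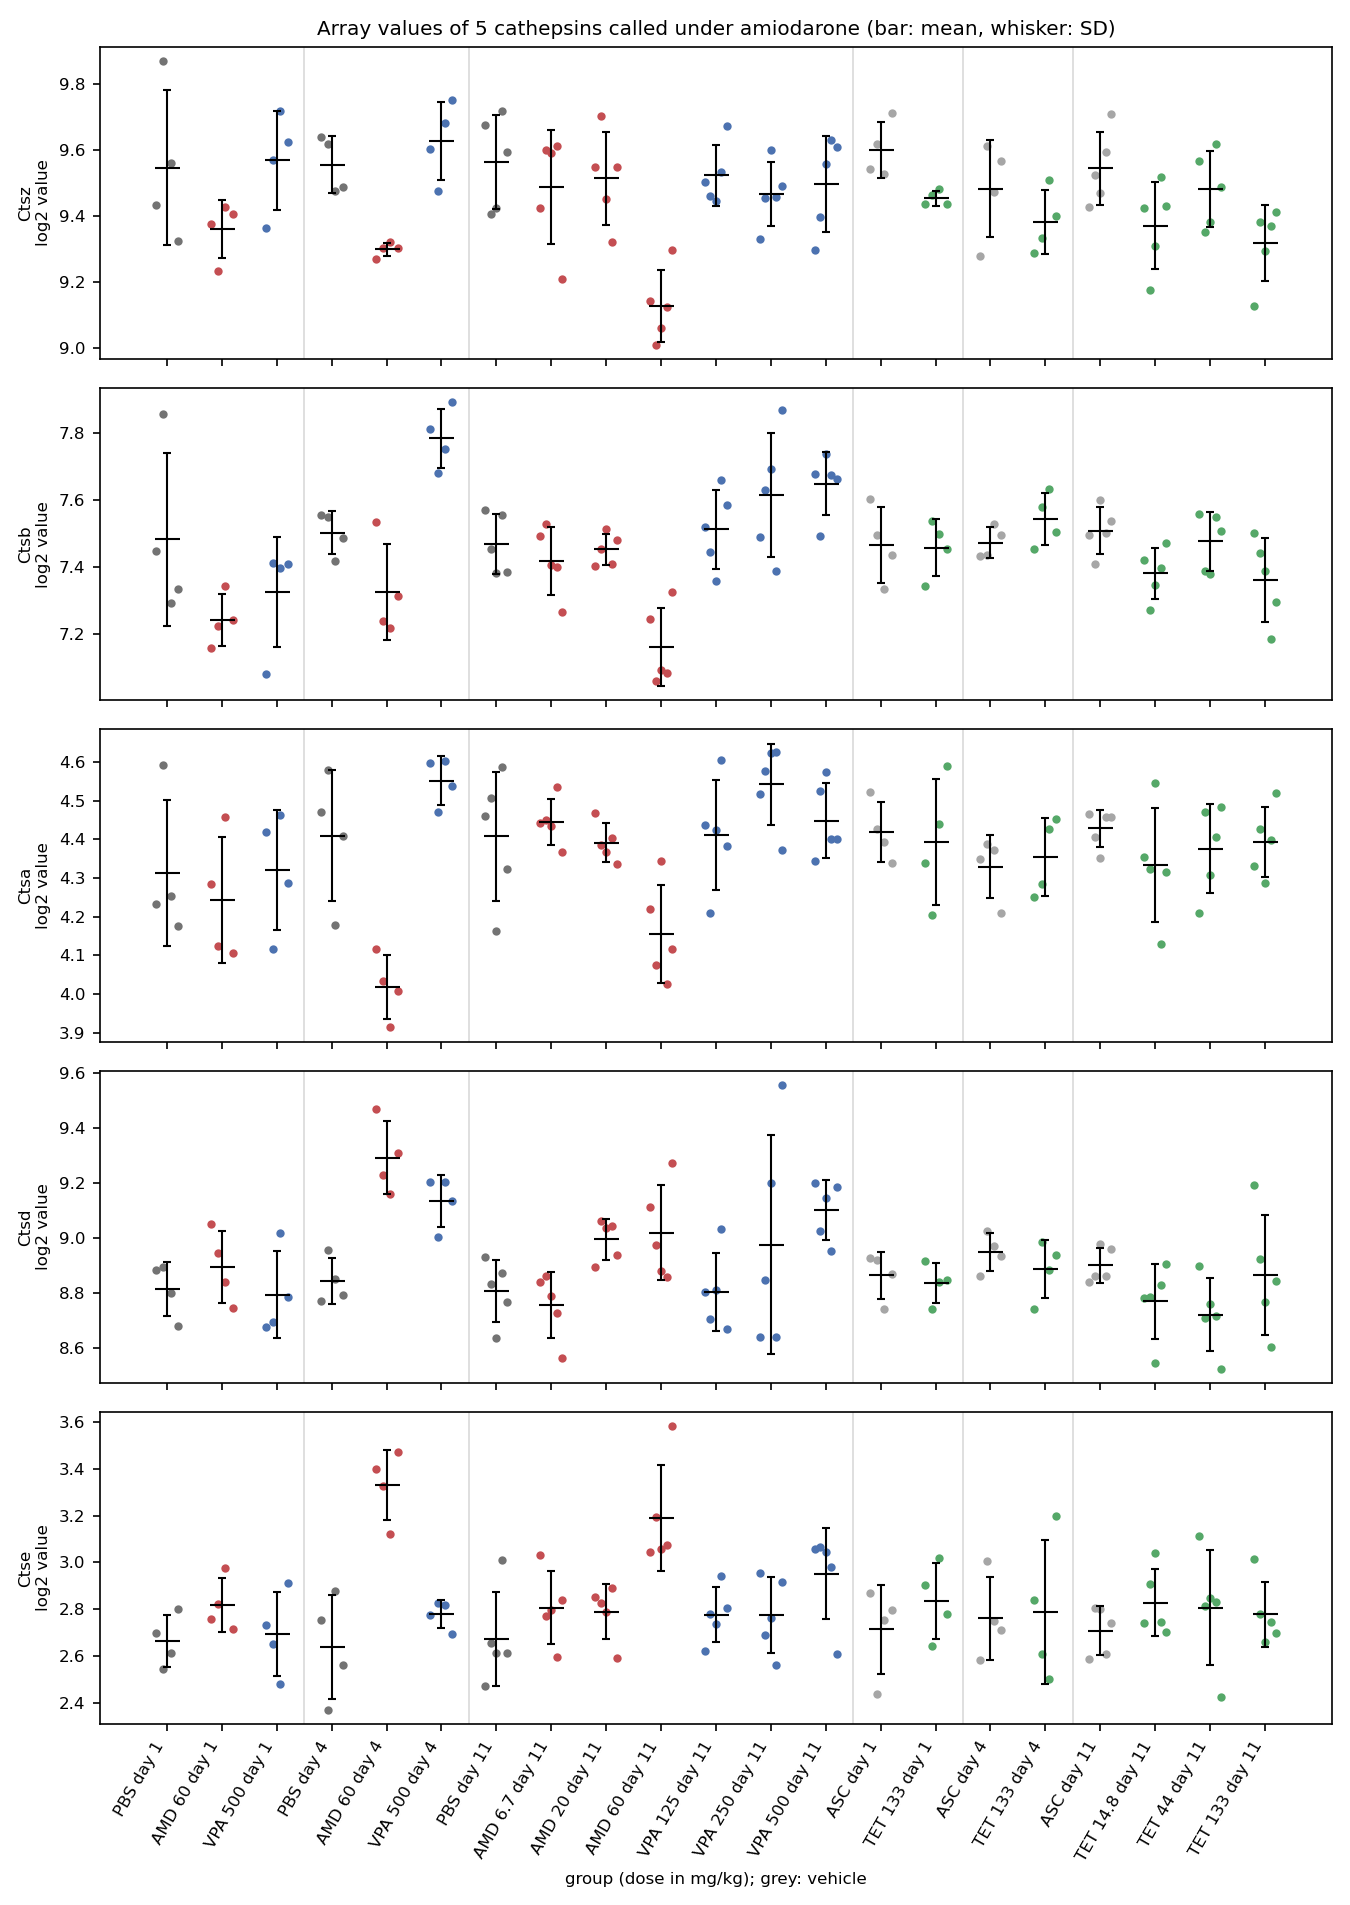
Log2 values of Ctsz, Ctsb, Ctsa, Ctsd and Ctse (panels) on every array of the 21 groups (horizontal axis, dose in mg/kg); points are arrays, bars the group mean and whiskers the SD, with vehicles in grey, amiodarone in red, valproic acid in blue and tetracycline in green. Ctsz and Ctsb are lowest at 60 mg/kg of amiodarone on day 11, and Ctse stands above every PBS array of the same day on days 4 and 11.

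Under valproic acid the cysteine cathepsin Ctsc moved most. It encodes dipeptidyl peptidase I, which activates the serine proteases in the granules of immune cells. On day 1 Ctsc read 10.31, 10.55, 10.58 and 10.65 against 9.33, 9.41, 9.64 and 10.18 in PBS. On day 4 it read 10.42, 10.57, 10.58 and 10.66 against 9.28, 9.40, 9.44 and 9.78. Neither day showed an overlap. The differences were 0.88 ± 0.17 (1.85-fold, adjusted p = 5.8e-05) and 1.08 ± 0.17 (2.12-fold, adjusted p = 1.7e-05).

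On day 11 the difference in Ctsc was smaller. At 500 mg/kg it read 9.76, 9.88, 9.91, 10.24 and 10.29 against 9.37, 9.40, 9.61, 9.64 and 9.70 in PBS. The groups did not overlap (0.47 ± 0.16, adjusted p = 0.041), but the call was lost without any of 6 of the 10 arrays. At 250 mg/kg it read 9.81, 9.83, 10.00, 10.12 and 10.96, a difference of 0.60 ± 0.16 (adjusted p = 0.011), and 0.40 ± 0.15 without array 067, its highest (adjusted p = 0.19). Under amiodarone Ctsc was not called on any day, and its difference from valproic acid was -1.06 ± 0.17 on day 1 (adjusted p = 1.1e-06), -1.05 ± 0.17 on day 4 (adjusted p = 7.4e-06) and -0.51 ± 0.16 on day 11 (adjusted p = 0.024). The last call was lost without any of 4 of the 10 arrays.

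Markers of Kupffer cells, the macrophages of the liver, were higher in some of the groups in which Ctsc was. On day 4 of valproic acid 8 of 16 measured markers were higher, led by Vsig4 (0.95 ± 0.19, adjusted p = 0.00095), Cd163 (0.90 ± 0.19, adjusted p = 0.0019) and Cd5l (0.87 ± 0.24, adjusted p = 0.03), and the list's median change was 0.69. The mean of the list lay between 6.06 and 6.71 on the treated arrays and between 5.29 and 6.38 on the PBS arrays of that day. On day 1 only Cd163 was higher (1.01 ± 0.19, adjusted p = 3.7e-05), and the list's median was -0.13. The list's mean read 5.90, 5.93, 6.01 and 6.39 on the treated arrays of day 1. On the PBS arrays it read 5.86, 5.89 and 5.92, and 6.64 on array 025. None of the 16 markers was at 0, and 15 of them lay above the median gene. The part of the markers in the Ctsc differences of days 1 and 4 was not tested. Array 067, the highest in Ctsc at 250 mg/kg, was also the highest of its group in the marker mean (6.87, the others 6.04 to 6.25).

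**Figure D4:**
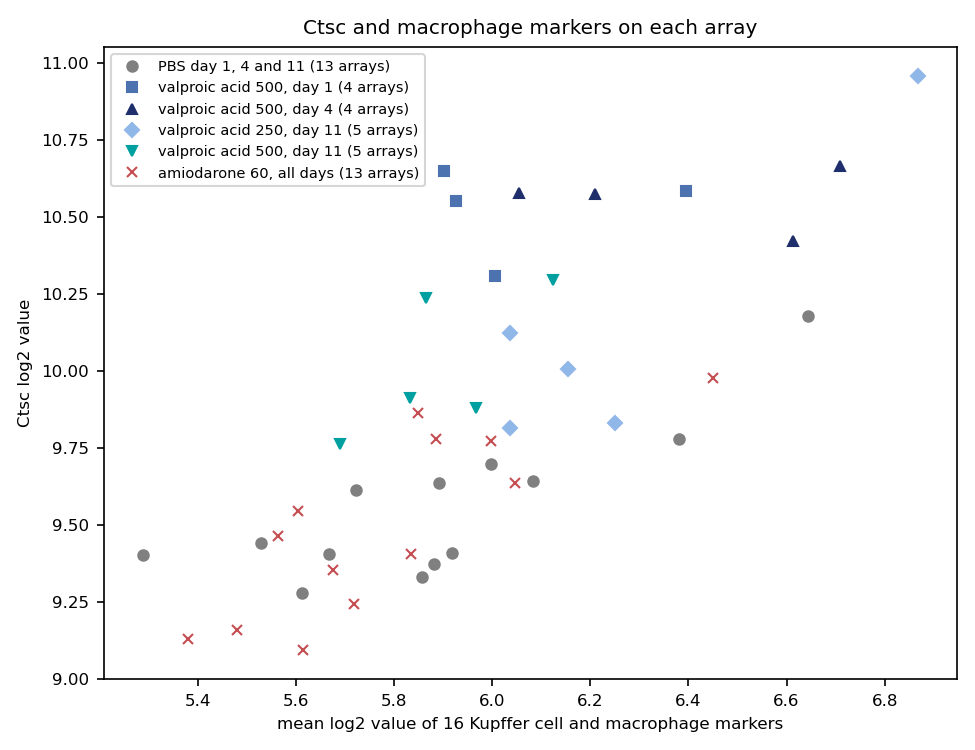
Ctsc log2 value (vertical axis) against the mean log2 value of 16 Kupffer cell and macrophage markers (horizontal axis), each point an array of PBS, of amiodarone 60 mg/kg on any day, or of valproic acid at 500 mg/kg on any day or 250 mg/kg on day 11. The 4 valproic acid arrays of day 1 sit above PBS in Ctsc at marker means of 5.90 to 6.39. The PBS arrays of day 1 have marker means of 5.86 to 5.92 and, on array 025, 6.64. Array 067 of 250 mg/kg is the point at the upper right.

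Ctss and Laptm5, genes of the module that are known from macrophages, were not called on the same day. Ctss, a cysteine cathepsin of antigen-presenting cells, differed by 0.68 ± 0.23 on day 4 of valproic acid (adjusted p = 0.11), and Laptm5, a lysosomal protein of blood cells, by 0.60 ± 0.19 (adjusted p = 0.078). Ctsb was higher on that day: it read 7.68, 7.75, 7.81 and 7.89 against 7.42, 7.49, 7.55 and 7.56 in PBS, without overlap. The difference of 0.28 ± 0.08 (adjusted p = 0.046) lost its call without any of 7 of the 8 arrays. On day 1 the Ctsb difference had been -0.16 ± 0.08 (adjusted p = 0.22), and the change in effect from day 1 to day 4 was 0.44 ± 0.12 (adjusted p = 0.01). That call was lost without PBS array 025 (0.31, adjusted p = 0.094) and with the compared groups fitted alone (adjusted p = 0.16).

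Ctsl, a cysteine cathepsin that also matures other lysosomal enzymes, was higher under valproic acid on days 1 and 11. On day 11 at 500 mg/kg it read 11.74, 11.84, 11.87, 11.88 and 11.91 against 11.44, 11.47, 11.54, 11.59 and 11.66 in PBS, without overlap (0.31 ± 0.08, adjusted p = 0.0037). On day 1 Ctsl read 11.57, 12.11, 12.13 and 12.14 against 11.55, 11.69, 11.73 and 11.86, and array 023 alone lay within the PBS range. The difference of 0.28 ± 0.09 (adjusted p = 0.013) was 0.42 without array 023 (adjusted p = 7.2e-05), and lost its call without any of 4 other arrays. Ctso was higher by 0.30 ± 0.06 at 250 mg/kg (adjusted p = 0.0011) and 0.28 ± 0.06 at 500 mg/kg on day 11 (adjusted p = 0.00085), both without overlap. Ctsd was higher by 0.30 ± 0.10 at 500 mg/kg on day 11 (adjusted p = 0.035), with arrays at 8.95, 9.03, 9.15, 9.19 and 9.20 against 8.63, 8.77, 8.83, 8.87 and 8.93 in PBS. That call was lost without any of 6 of the 10 arrays.

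The LAMP genes changed little. Lamp1, a main protein of the lysosomal membrane, had group means from 10.77 to 10.93 over all 21 groups and was never called. Its difference at 60 mg/kg of amiodarone on day 11 was -0.08, with a 95% interval from -0.17 to 0.01 (adjusted p = 0.38). Lamp2, which also serves chaperone-mediated autophagy, read 10.78, 10.79, 10.83, 10.83 and 10.86 there, against 10.87, 10.91, 10.98, 10.98 and 11.01 in PBS. The groups did not overlap, yet the difference was small at -0.13 ± 0.04 (0.913-fold, adjusted p = 0.028), and it lost its call without any of 5 arrays.

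The LAPTM proteins, small membrane proteins that sort cargo at the lysosome, moved in opposite directions under amiodarone. Laptm4a fell by 0.26 ± 0.07 on day 11 (adjusted p = 0.015), and lost its call without array 020 of PBS (-0.21, adjusted p = 0.082) or array 031 of amiodarone (-0.23, adjusted p = 0.059). Laptm4b was higher by 0.23 ± 0.07 (adjusted p = 0.022), and its call was lost without any of 4 arrays. Under valproic acid at 500 mg/kg Laptm4b was higher by 0.24 ± 0.07 (adjusted p = 0.0092), and by 0.20 without array 002 of PBS (adjusted p = 0.069). The arrays of the groups overlapped in all 3 cases.

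Npc1 showed the strongest fall of the set, on day 1 of valproic acid. It encodes the membrane transporter that exports cholesterol from the lysosome. The treated arrays read 6.62, 6.76, 6.97 and 7.01, and the PBS arrays 7.42, 7.75, 7.86 and 7.92. All treated arrays lay below all PBS arrays, and also below every other array of the study. The difference was -0.90 ± 0.13 (0.536-fold, adjusted p = 4.2e-08), and on day 4 it was -0.30 ± 0.13 (adjusted p = 0.26). Under amiodarone it was 0.09 ± 0.13 on day 1 (adjusted p = 0.93), and the drugs differed by 0.99 ± 0.13 on that day (adjusted p = 1.9e-09).

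On day 11 the sign for Npc1 had turned. The 500 mg/kg arrays read 7.53, 7.86, 8.00, 8.15 and 8.20 against 7.43, 7.54, 7.55, 7.68 and 7.70 in PBS, which overlapped (0.37 ± 0.11, adjusted p = 0.026). The day 11 effect exceeded the day 1 effect by 1.27 ± 0.17 (adjusted p = 1.8e-08). PBS was the lowest of the vehicle groups on that day: vehicle means of Npc1 ran from 7.58 in PBS on day 11 to 8.18 in ASC on day 1, a range wider than the day 11 difference, and the call was lost without any of 6 arrays. The fall of day 1 was larger than that range.

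Mcoln1, the calcium channel of the lysosome, fell with Npc1. On day 1 of valproic acid it read 4.88, 5.47, 5.64 and 5.64 against 5.88, 5.93, 6.01 and 6.01 in PBS. The groups did not overlap, and the difference was -0.55 ± 0.10 (0.683-fold, adjusted p = 2.1e-05), with an adjusted p of 0.051 where only these 2 groups were fitted. Without array 079, the lowest, it was -0.38 (adjusted p = 0.0037). On day 11 it was -0.13 ± 0.09 (adjusted p = 0.47). The other mucolipins, Mcoln2 and Mcoln3, lay below the median gene and were not called anywhere.

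Npc2, the soluble partner that hands cholesterol to NPC1, rose under valproic acid from day 4. It read 8.15, 8.18, 8.28 and 8.33 on day 4 against 7.90, 7.97, 7.98 and 8.17 in PBS, which overlapped (0.23 ± 0.07, adjusted p = 0.048), and the call was lost without any of 7 of the 8 arrays. On day 11 at 500 mg/kg Npc2 read 8.18, 8.21, 8.22, 8.26 and 8.26, and at 250 mg/kg 8.17, 8.17, 8.19, 8.24 and 8.52. The PBS arrays read 7.86, 7.86, 7.92, 7.92 and 8.01. Both doses lay above all of them, by 0.31 ± 0.06 (adjusted p = 0.0002) and 0.34 ± 0.06 (adjusted p = 0.00013). Under amiodarone the day 11 difference in Npc2 was 0.06 ± 0.06 (adjusted p = 0.73).

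The lysosomal phospholipase and the storage marker gave no call. Pla2g15, the phospholipase that amiodarone inhibits, had group means from 2.67 to 3.01, below the median gene, and differed by 0.01 on day 11 of amiodarone with a 95% interval from -0.18 to 0.20 (adjusted p = 0.99). Its array values there were 2.63, 2.77, 2.78, 2.83 and 2.84 against 2.62, 2.65, 2.78, 2.81 and 2.97 in PBS. Gpnmb, a glycoprotein that macrophages raise when lysosomes are loaded, read 2.80, 2.96, 2.97, 3.07 and 3.19 against 2.53, 2.82, 2.83, 2.86 and 2.98. The groups overlapped, with a difference of 0.20 and a 95% interval from -0.03 to 0.42 (adjusted p = 0.4). At this signal level a change in either gene within these intervals was not detectable.

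The dose trends of day 11 called 6 of the 45 genes under amiodarone (13.3%), against 7.02% of all genes. Among genes above the median gene it was 16.1% of members, against 13.1% of all such genes. Under valproic acid these shares were 32.3% and 18.3%. Ctse (0.15 ± 0.03 a dose rank, adjusted p = 0.001), Ctso (0.08 ± 0.02, adjusted p = 0.0019) and Laptm4b (0.07 ± 0.02, adjusted p = 0.025) rose with dose, and Ctsz, Ctsb and Ctsa (-0.08 ± 0.02, adjusted p = 0.024) fell. Under valproic acid 10 were called (22.2%), 9 rising and 1 falling, against 9.94%. After Atp6v0d2 the steepest were Ctsc (0.17 ± 0.05, adjusted p = 0.012), Atp6v1b2 (0.13 ± 0.03, adjusted p = 0.0018), Npc2 (0.11 ± 0.02, adjusted p = 1.1e-05) and Ctsd (0.11 ± 0.03, adjusted p = 0.012), and Atp6v0b fell (-0.12 ± 0.04, adjusted p = 0.026). Tetracycline called 0 (3 at an unadjusted p under 0.05), against 0%. Of these slopes, those of Ctsa and Laptm4b under amiodarone lost their call without any of 6 and 5 of the 20 arrays, that of Atp6v0b without any of 3, and that of Ctsd without PBS array 032 (0.09).

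The drugs at their high doses were compared directly, which for amiodarone and valproic acid does not involve the shared PBS arrays. The doses differ in mg/kg. On day 1, 25.8% of the members above the median gene differed, against 29.6% of all such genes. In all, 9 of 45 genes differed (20.0%), 2 higher and 7 lower under amiodarone, against 16.2% of all genes. The largest were Ctsc and Npc1, given above, with Ctss (-0.65 ± 0.23, adjusted p = 0.04), Ctsl (-0.41 ± 0.09, adjusted p = 0.00015), Atp6v0d1 (-0.36 ± 0.08, adjusted p = 0.00046) and Atp6v1c2 (-0.33 ± 0.10, adjusted p = 0.0098) lower and Mcoln1 (0.44 ± 0.10, adjusted p = 0.00071) higher. Ctss lost its call without any of 4 of the 8 arrays (-0.47 without array 079), Atp6v1c2 without array 095 (-0.26) and Mcoln1 without array 079 (0.26, adjusted p = 0.06).

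On day 4, 7 genes differed (15.6%), 1 higher and 6 lower under amiodarone, against 8.55%. Beside Ctsc these were Ctsa (-0.53 ± 0.09, adjusted p = 3.3e-06), Ctsb (-0.46 ± 0.08, adjusted p = 3.2e-05), Ctsz (-0.33 ± 0.09, adjusted p = 0.0084), Ctsh (-0.30 ± 0.07, adjusted p = 0.0028) and Npc2 (-0.21 ± 0.07, adjusted p = 0.042, lost without any of 5 of the 8 arrays), and Ctse was higher (0.55 ± 0.12, adjusted p = 0.00085). On day 11, 10 genes differed (22.2%), all lower under amiodarone, against 8.06%. They were led by Atp6v0d2, Ctsf (-0.62 ± 0.14, adjusted p = 0.00075), Ctsc, Ctsb (-0.49 ± 0.07, adjusted p = 8.7e-07) and Ctsl (-0.41 ± 0.08, adjusted p = 5.8e-05), and 8 of the 10 were cathepsins or Lamp2. Among genes above the median gene, 19.4% of members differed between amiodarone and valproic acid on day 4, against 15.8% of all such genes. On day 11 these shares were 32.3% and 14.8%. Against tetracycline, with each drug's own vehicle, the amiodarone effect of day 11 called 0 (6 at an unadjusted p under 0.05), against 3.39%.

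**Figure D5:**
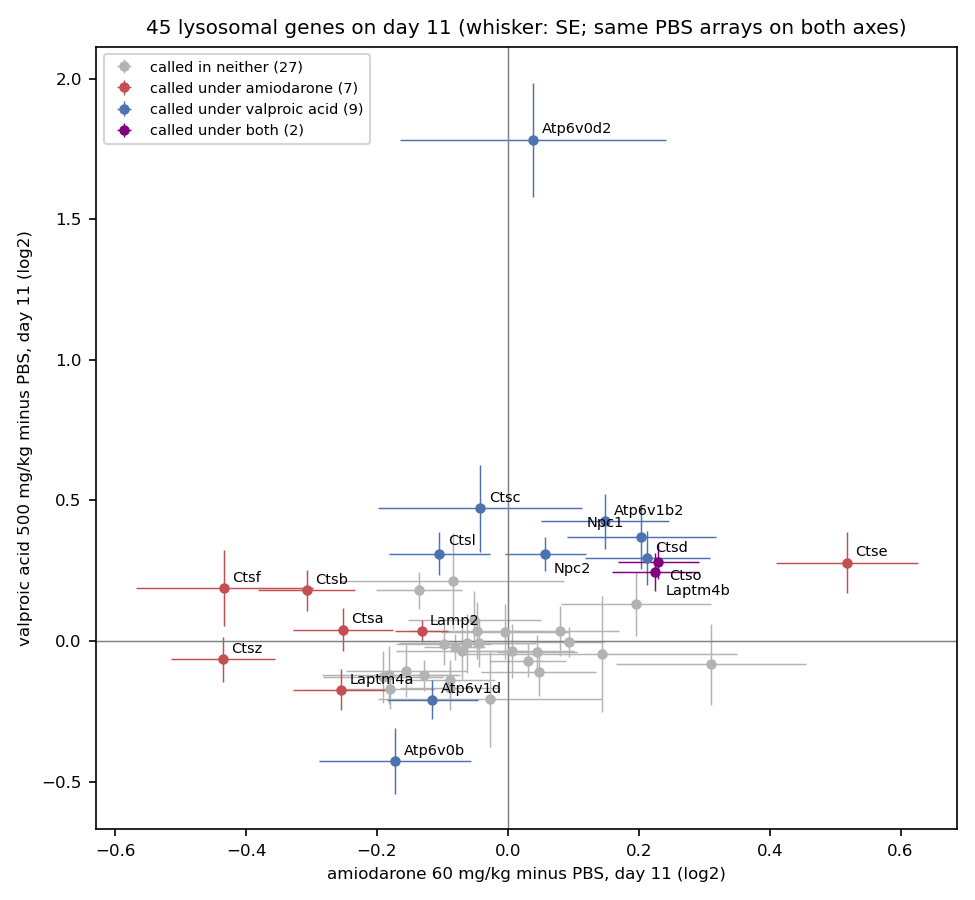
Log2 fold change of each of the 45 genes on day 11 under amiodarone 60 mg/kg (horizontal axis) and valproic acid 500 mg/kg (vertical axis), with SE as whiskers; both use the same 5 PBS arrays. Atp6v0d2 stands apart at 1.78 on the valproic acid axis and 0.04 on the amiodarone axis, and Ctsz and Ctsf lie at -0.44 and -0.43 on the amiodarone axis.

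The effects were also compared between days. For amiodarone 0 genes had an effect on day 4 that differed from day 1 (5 at an unadjusted p under 0.05; 0.541% of all genes), and 0 on day 11 (7 at an unadjusted p under 0.05; 0.109%). A call on day 11 and none on day 1 is therefore not shown to be a difference between days. Among genes above the median gene, the valproic acid effect of day 4 differed from day 1 in 9.68% of members, against 11.3% of all such genes. For day 11 against day 1 these shares were 32.3% and 22.4%. For valproic acid 3 genes differed between days 4 and 1 (6.67%), against 6.07%: Npc1 (0.60 ± 0.18, adjusted p = 0.028), Ctsb, given above, and Atp6v0e (-0.26 ± 0.08, adjusted p = 0.041). Between days 11 and 1 there were 10 (22.2%), 8 with a higher and 2 with a lower effect, against 12.3%. They were led by Atp6v0d2, Npc1, Mcoln1 (0.42 ± 0.14, adjusted p = 0.029), Npc2 (0.35 ± 0.09, adjusted p = 0.0044) and Ctsb (0.34 ± 0.11, adjusted p = 0.03), and the lower ones were Atp6v0d1 (-0.32 ± 0.11, adjusted p = 0.042) and Atp6v0e (-0.24 ± 0.08, adjusted p = 0.035). Of the differences from day 1 to day 4, that of Npc1 lost its call without any of 7 of the 16 arrays and that of Atp6v0e without any of 9. Of those from day 1 to day 11, Ctsb lost its call without any of 5 of the 18 arrays (0.21 without PBS array 025), Mcoln1 without any of 5 (0.25 without array 079), Atp6v0d1 without any of 10 (-0.20 without array 080) and Atp6v0e without any of 7.

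Other genes of the lysosome, taken from lists by function, also had calls in both directions. The shares given beside these lists are of all genes and are not matched for signal level. Among genes above the median gene, 11.6% and 13.1% were called on days 4 and 11 of amiodarone at 60 mg/kg. For valproic acid at 500 mg/kg that share was 28.8%, 4.46% and 16.7% on days 1, 4 and 11. Of 35 measured hydrolases outside the set, amiodarone called 3 higher and 1 lower on day 4 (6.21% of all genes called) and 7 higher and 4 lower on day 11 (7.05%). On day 11 the largest were Gm2a, the ganglioside activator (-0.57 ± 0.11, adjusted p = 0.00011), the hyaluronidase Hyal2 (0.47 ± 0.10, adjusted p = 0.00039) and the mannosidase Manba (0.44 ± 0.11, adjusted p = 0.0052). On day 4 they were Scpep1 (0.49 ± 0.10, adjusted p = 0.00023), the saposin precursor Psap (0.45 ± 0.12, adjusted p = 0.0056) and the arylsulfatase Arsb (0.33 ± 0.08, adjusted p = 0.0041). Valproic acid called 4 higher and 3 lower on day 1 (15.7% of all genes called), led by Gm2a (-0.88 ± 0.12, adjusted p = 4.3e-08), Hyal1 (0.87 ± 0.13, adjusted p = 8.5e-08) and Acp5 (-0.71 ± 0.09, adjusted p = 1e-09). On day 4 it called 0 (11 at an unadjusted p under 0.05, 2.36% of all genes called), and on day 11 it called 5 higher and 1 lower (9.03%), led by Galns (0.40 ± 0.12, adjusted p = 0.02), Psap (0.31 ± 0.10, adjusted p = 0.039) and Scpep1 (0.30 ± 0.09, adjusted p = 0.017).

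Of 21 genes of the TFEB family and autophagy, amiodarone called 2 higher on day 4 (6.21% of all genes called) and 2 higher and 1 lower on day 11 (7.05%). These were the autophagosome protein gene Map1lc3a on both days (0.51 ± 0.08, adjusted p = 7.1e-06, and 0.37 ± 0.07, adjusted p = 0.0002), the autophagy receptor Sqstm1 on day 4 (0.36 ± 0.11, adjusted p = 0.036), and Map1lc3b (0.23 ± 0.07, adjusted p = 0.017) and the kinase Ulk1 (-0.37 ± 0.11, adjusted p = 0.017) on day 11. Valproic acid called 1 higher and 4 lower on day 1 (15.7%), led by Gabarapl1 (-1.08 ± 0.11, adjusted p = 2.1e-13), Fnip2 (-0.997 ± 0.19, adjusted p = 3.2e-05) and Uvrag (-0.76 ± 0.10, adjusted p = 1.3e-08). On day 4 it called Map1lc3b (0.28 ± 0.07, adjusted p = 0.021, beside 2.36% of all genes), and on day 11 3 higher and 1 lower (9.03%), led by Ppargc1a (0.48 ± 0.16, adjusted p = 0.039), Map1lc3b (0.47 ± 0.07, adjusted p = 1.9e-07) and Atg5 (0.43 ± 0.07, adjusted p = 5.2e-06).

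The same shares of all genes stand beside the smaller lists. Of 16 other membrane and positioning genes, Tmem192 was higher on day 11 of both drugs (0.24 ± 0.07, adjusted p = 0.023, and 0.31 ± 0.07, adjusted p = 0.0017), and the sialic acid exporter Slc17a5 was lower on day 1 of valproic acid (-0.43 ± 0.12, adjusted p = 0.0051). Of 8 genes that sort enzymes to the lysosome, the mannose 6-phosphate receptor Igf2r was lower on day 1 of valproic acid (-0.28 ± 0.09, adjusted p = 0.029). On day 11 Gnptg (0.56 ± 0.13, adjusted p = 0.0017) and Gnptab (0.23 ± 0.07, adjusted p = 0.018) were higher and Sort1 lower (-0.35 ± 0.08, adjusted p = 0.0016). Cstb, an inhibitor of cysteine cathepsins, was higher on days 4 and 11 of amiodarone (0.27 ± 0.07, adjusted p = 0.0038, and 0.24 ± 0.06, adjusted p = 0.0035) and on day 1 of valproic acid (0.22 ± 0.07, adjusted p = 0.011), the only call among 4 measured inhibitors.

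Markers of other liver cells were called in the same comparisons, beside the same shares of all genes. On day 11 of amiodarone 6 of 11 hepatocyte markers were lower, with a median of -0.21, as were 5 of 15 stellate cell and fibroblast markers and 3 of 14 endothelial markers, and limma called 0 of 16 macrophage markers (0 at an unadjusted p under 0.05, median -0.14). On day 1 of valproic acid 5 of 15 stellate cell markers were lower and 1 higher. Of 7 measured neutrophil markers only S100a9 (2.42 ± 0.63, adjusted p = 0.0028) and S100a8 (2.14 ± 0.59, adjusted p = 0.0051) were called, both higher, and 4 of the 7 lay below the median gene. On day 4 of valproic acid 3 of 14 endothelial markers were higher (11 at an unadjusted p under 0.05, median 0.29). Of 15 stellate cell and fibroblast markers only Lum (0.55 ± 0.13, adjusted p = 0.0088) and Dcn (0.37 ± 0.09, adjusted p = 0.0051) were called, both higher. On day 11 at 500 mg/kg 3 of 11 hepatocyte markers were lower (median -0.07), and on days 1 and 4 of amiodarone 2 of 15 stellate cell markers were. Their part in the changes of the 45 genes was not tested.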

How the data were processed

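The deposited table held log2 values that the authors made with RMA (robust multi-array average), per the labels. For RMA the version, and for the probe sets the annotation release, is not given in the sources used here. Per the labels, the left lateral lobe was kept in RNAlater, RNeasy Mini kits gave the RNA, and a 3' IVT Express kit added the biotin label. Of 17306 probe sets, 16464 carried 1 gene symbol and were tested, 1 probe set a gene. The other 842, with no symbol or with several, are not used here. Array medians lay between 3.08 and 3.15, and precision is limited by how many arrays a group has.

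With limma 3.58.1 in R 4.3.3, 1 linear model held the means of the 21 groups over all 95 arrays. It gave 26 comparisons, each with Benjamini-Hochberg adjusted p-values over 16464 genes and a threshold of 0.05 for a call. Errors of log2 fold changes are SE from the model, and intervals are at 95%. Dose trends are slopes of the day 11 group means on dose rank, from 0 (vehicle) to 3. Figures used matplotlib 3.10.9 in Python 3.11.15. The fit was tested on simulated data with 200 changed genes.

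Nothing in the labels says that arrays come from separate animals, and the p-values then measure no more than the spread between these samples, which may be technical. Arrays are named by the sample numbers in the labels. The genes and lists were chosen with earlier results of these data known. Called genes of the set are named, up to 10 in each direction for a treated group and 5 for trends and differences. Array values are given for the 4 largest calls at each high dose of amiodarone and valproic acid, and for Lamp1, Lamp2, Npc1, Npc2, Ctsb, Ctsd, Ctsl, Atp6v0d2, Pla2g15 and Gpnmb. For other lysosomal lists the 3 largest calls are named. Alternatives were weights for array quality, fitting the compared groups alone, leaving out genes below the median, quantile normalizing again, centring arrays, blocks of 24 sample numbers as a factor, and leaving out each array.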

Additional observations from a re-analysis of the deposited data

Results flagged for a closer look

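Single arrays stood apart from the rest of their group in 10 of 116 groups of array values examined, where chance gives about 1 in 20. Array 023 of valproic acid 500 mg/kg on day 1 did so in 4 genes: Ctsb was 7.08 there and 7.40 on the nearest array, Ctsl 11.57 and 12.11, Lamp1 10.95 and 10.77, and Lamp2 10.89 and 10.97. Atp6v0b was 5.06 on array 081 of valproic acid 500 mg/kg on day 11, with the nearest at 5.37. Ctse was 3.58 on array 062 of amiodarone 60 mg/kg on day 11, with the nearest at 3.19, and Ctsl was 11.33 on array 033 of that group, with the nearest at 11.44. Ctsf was 4.86 on array 032 of PBS on day 11, with the nearest at 5.11. Ctsl was 11.71 on array 008 of valproic acid on day 4, with the nearest at 11.83. Pla2g15 was 2.82 on array 044 of PBS on day 4, with the nearest at 2.62.

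The effect of valproic acid at 500 mg/kg differed between days, by limma's test of the difference, in the genes named here. From day 1 to day 4 the effect changed by 0.60 in Npc1, 0.44 in Ctsb and -0.26 in Atp6v0e. From day 1 to day 11 it changed by 1.78 in Atp6v0d2, 1.27 in Npc1, 0.42 in Mcoln1, 0.35 in Npc2, 0.34 in Ctsb, -0.32 in Atp6v0d1 and -0.24 in Atp6v0e.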

How the results depend on the processing

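Of 40 calls of a gene in a treated group, 16 were kept under every alternative, 22 without each array in turn and 18 under the 6 other settings, and 0 changed sign. The 16 were Ctsa, Ctsd and Ctse on day 4 and Ctsz, Ctsb and Ctse on day 11 of amiodarone, and, under valproic acid, Npc1, Ctsc, Atp6v0b and Atp6v1e1 on day 1, Ctsc on day 4, Atp6v0d2, Atp6v1b2, Ctsl and Npc2 on day 11 at 500 mg/kg, and Atp6v0d2 at 250 mg/kg. Ctse lies below the median gene, so the setting that leaves out such genes could not test it, and its 2 calls were kept under the other 5 settings. With the compared groups fitted alone, which leaves fewer arrays to estimate the spread, the counts fell from 9 to 4 for amiodarone on day 11. For valproic acid they fell from 10 to 4 on day 1, from 4 to 1 at 250 mg/kg and from 11 to 7 at 500 mg/kg on day 11. On day 4 of valproic acid Ctsb and Npc2 lost their calls in that fit, and Ctsc kept its call. The counts also fell from 9 to 4 between the drugs on day 1, and for the change in the valproic acid effect from 10 to 3 on day 11 and from 3 to 0 on day 4. For amiodarone on day 4 the count was 5 in place of 3 with array quality weights, quantile normalizing again or blocks of sample numbers. Amiodarone against tetracycline gave 1 in place of 0 after quantile normalizing again. The change in the valproic acid effect on day 4 gave 1 with array quality weights and 5 with dim genes left out. With blocks of sample numbers Ctsb and Npc2 lost their calls on day 4 of valproic acid. The cause was not tested.

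Leaving out each array in turn gave 0 to 1 calls for amiodarone on day 1 (1 without PBS array 050), 3 to 3 on day 4 and 5 to 8 on day 11 (5 without amiodarone array 062, PBS array 002 or PBS array 073). For valproic acid it gave 7 to 12 on day 1, 1 to 4 on day 4 (1 without PBS arrays 041, 044 or 087 or valproic acid arrays 004, 068 or 092), 3 to 5 at 250 mg/kg and 7 to 11 at 500 mg/kg on day 11 (7 without PBS array 020 or 032). The trends gave 4 to 7 for amiodarone and 9 to 11 for valproic acid. Between the drugs it gave 7 to 10, 6 to 7 and 9 to 11 on days 1, 4 and 11, and 0 to 1 against tetracycline (1 without ASC array 016, PBS array 020 or 073 or tetracycline array 094). The change in the valproic acid effect gave 0 to 4 on day 4 (0 without PBS array 025, 1 without PBS array 044 or valproic acid arrays 008 or 068) and 5 to 10 on day 11 (5 without PBS array 003, 6 without PBS array 090). All other counts stayed at 0. No paired analysis was possible because each sample number occurs once in the series. Genes below the median gene are close to background, which limits what these arrays can show for them.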

Other observations

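Outside the set, the cholangiocyte marker Krt23 was higher on days 4 and 11 of amiodarone (1.22 ± 0.19, adjusted p = 3.2e-06, and 1.199 ± 0.17, adjusted p = 2.1e-07, by limma) and on day 11 of valproic acid at 500 mg/kg (0.66 ± 0.17, adjusted p = 0.0066). It was the only call among 7 measured cholangiocyte markers each time, and the list's median changes were -0.01, 0.10 and 0.06. None of the 7 lay above the median gene. On day 4 of amiodarone 4 of 11 hepatocyte markers were lower and limma called 0 of 16 macrophage markers (0 at an unadjusted p under 0.05). The mean of the macrophage markers read 5.72, 5.83, 6.00 and 6.05 on those arrays, against 5.29, 5.53, 5.61 and 6.38 in PBS. Ctsd and Ctse were higher on that day, and the part of the markers in their differences was not tested.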
